A study of Homo sapiens with 3 samples.

Results

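The Notch genes described here are 10 rows of the deposited RPKM table, found by gene name, out of 35851 rows. They are the receptors NOTCH1, NOTCH2 and NOTCH3, the ligands JAG1, JAG2 and DLL1, and HES1, HES4, HEY1 and NRARP, which are known as targets of the pathway. RPKM counts a gene's reads relative to its exonic length and to the depth of the library. The study transfected 5637 cells, a human bladder cancer line that is 1 line of 1 origin, with siRNA to look for genes that lie downstream of MYBL2. The libraries are siMYBL2-1 and siMYBL2-2 (siRNA against MYBL2, 1 library each) and siNC (a control siRNA, 1 library). All 3 carry the genotype label WT and were transfected with a lipid reagent, and the labels give no time after transfection. Nor do they say whether the endings -1 and -2 name different siRNAs or repeats of the same one, so these libraries were taken as 2 samples of 1 group. No label mentions separate cultures, so a p-value here reflects only how far these samples lie apart, which may be technical variation.

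Notch signalling passes between cells in contact. A ligand of the Jagged or Delta family on a neighbouring cell binds a Notch receptor, an ADAM protease and then gamma-secretase cut the receptor, and the freed intracellular domain enters the nucleus, where it joins the DNA-binding protein RBPJ and a Mastermind coactivator. HES and HEY genes, which encode basic helix-loop-helix repressors, and NRARP, which encodes a small ankyrin repeat protein that restrains the Notch complex, are among the genes that this complex switches on. In bladder cancer, mutations that inactivate Notch genes have been reported, and in stratified epithelia the pathway is known for its part in differentiation.

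The siRNA target was lower in both siMYBL2 libraries. MYBL2 was measured at 46.0 RPKM in siMYBL2-1 and 56.3 RPKM in siMYBL2-2, against 211 RPKM in siNC, or 0.218 times siNC (0.212 to 0.224, a 95% interval that covers counting error only, as do the intervals beside later ratios) and 0.267 times siNC (0.260 to 0.274). The libraries hold 41818861, 46177658 and 40259436 assigned reads in the same order. Of 13 epithelial and urothelial markers, 11 had a mean of at least 1 RPKM, and the list summed to 2500 RPKM in siMYBL2-1, 1930 RPKM in siMYBL2-2 and 2200 RPKM in siNC. The uroplakin genes of the list were an exception, since UPK1B had no read in any library, which allows up to 3 reads in each, and UPK2 lay between 0.382 and 0.843 RPKM. The 5 endothelial markers summed to at most 0.297 RPKM in a library, the 6 fibroblast and smooth muscle markers to at most 2.26 RPKM and the 5 blood cell markers to at most 5.34 RPKM, nearly all of it CD68. Only 14.2% of the exonic bases of CD68 belong to no other row, so its value may hold reads of overlapping rows. The epithelial sum hides members on different sides, since 5 of the 11 were higher than siNC in both siMYBL2 libraries, 3 lower in both and 3 on opposite sides. KRT5 (176 and 230 RPKM, against 315 RPKM in siNC) and TP63 (6.11 and 12.3 RPKM, against 14.5 RPKM in siNC) were lower in both. KRT18 (298 and 172 RPKM, against 124 RPKM in siNC) and GATA3 (7.27 and 4.0 RPKM, against 3.21 RPKM in siNC) were higher in both. Of the same list, the keratin gene KRT19 (800 and 716 RPKM, against 949 RPKM in siNC) was lower in both. ELF3 (14.5 and 8.43 RPKM, against 12.2 RPKM in siNC) lay on opposite sides. CDH1, which encodes E-cadherin, had 36.2 RPKM in siMYBL2-1 and 8.98 RPKM in siMYBL2-2, against 14.8 RPKM in siNC. None of the 11 passed limma, the test described below (smallest adjusted p = 0.976). The part of these markers in the Notch values was not tested. In bulk RNA, fewer cells that express a gene and less of its RNA per cell cannot be told apart.

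Upstream sequences of HES1, HES4 and NRARP are shown because these targets were lower than siNC in both siMYBL2 libraries and because the pathway acts through RBPJ at such sequences. They come from RefSeq (GRCh38.p14), which held an entry for 8 of the 10 genes, all but DLL1 and HEY1. The windows are the 250 bases before the annotated start, read along the gene's strand, and bases that the deposited table counts as exon were cut from the HES1 stretch. For HES4, part of whose window is exonic in that table, only a short site is shown. Letters searched on both strands were GTGGGAA (a core of RBPJ sites), AACGG (a core of MYB sites) and TTTGAA (the CHR element of late cell cycle genes), which do not overlap each other in these windows. Capitals mark GTGGGAA and AACGG, and CCGTT is AACGG on the opposite strand. The first pair of lines below shows 30 bases around GTGGGAA in HES1 (chr3:194136052-194136081, plus strand) and HES4 (chr1:1000156-1000185, minus strand), and the other lines show the HES1 stretch (chr3:194135898-194136144, plus strand) and the NRARP window (chr9:137302272-137302521, minus strand).
HES1 site: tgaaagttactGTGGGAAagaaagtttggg
HES4 site: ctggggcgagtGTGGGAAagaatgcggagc
HES1 upstream: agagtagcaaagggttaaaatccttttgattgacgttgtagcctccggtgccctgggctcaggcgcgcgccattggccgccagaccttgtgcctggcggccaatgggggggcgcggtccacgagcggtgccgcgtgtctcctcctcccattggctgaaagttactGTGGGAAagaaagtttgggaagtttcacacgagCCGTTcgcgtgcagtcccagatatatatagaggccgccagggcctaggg
NRARP upstream: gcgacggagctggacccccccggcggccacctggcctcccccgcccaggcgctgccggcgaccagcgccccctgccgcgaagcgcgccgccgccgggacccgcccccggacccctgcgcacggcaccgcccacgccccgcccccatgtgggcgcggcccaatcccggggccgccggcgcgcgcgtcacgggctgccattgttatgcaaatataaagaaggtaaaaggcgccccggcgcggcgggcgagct

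GTGGGAA stood 85 to 79 bases before the start of HES1 and 77 to 71 bases before that of HES4, on the gene's own strand in each. Of all 35116 RefSeq windows of this length, 5.43% hold GTGGGAA. The core AACGG, which 16.5% of the windows hold, was matched in HES1 (52 to 48 bases before the start) and in HES4 (17 to 13 bases). In HES4, all 5 bases of that match and 5 of the 7 bases of GTGGGAA lie in a stretch that the deposited table counts as exon, so there the RefSeq start and that of the table differ. In all, 0.934% of the windows hold both motifs. TTTGAA, held by 13.3% of the windows, was matched only in NOTCH1 among the 8 genes (228 to 223 bases before the start). None of the 3 motifs was matched in NRARP, NOTCH2, NOTCH3, JAG1 or JAG2. Only these exact letters were searched, so a site of the same kind with other letters would be neither marked nor counted. A match describes letters, not binding, and the files hold no measure of binding.

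Across the 10 genes, HES1 had the highest mean over the 3 libraries and NOTCH3 and HEY1 the lowest means. Averaged over the 3 libraries, the order was HES1 (30.0 RPKM), JAG1 (16.5), JAG2 (9.61), HES4 (4.47), DLL1 (2.99), NOTCH1 (2.81), NRARP (2.71), NOTCH2 (1.51), HEY1 (1.27) and NOTCH3 (1.27). The ranges over the libraries did not overlap between HES1 and JAG1, JAG1 and JAG2, JAG2 and HES4, or NRARP and NOTCH2. They did overlap between the other neighbours in this order, so HES4, DLL1, NOTCH1 and NRARP could not be ranked one after the other beyond their spread, nor could NOTCH2, HEY1 and NOTCH3. HES1, JAG1 and JAG2 kept the first 3 places in each library. All 10 passed the filter of a mean of at least 1 RPKM, although HEY1 in siMYBL2-1 and NOTCH3 in siMYBL2-2 were below 1 RPKM. HEY1 passed only through siNC, since its siMYBL2 mean was 0.767 RPKM.

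**Figure D1:**
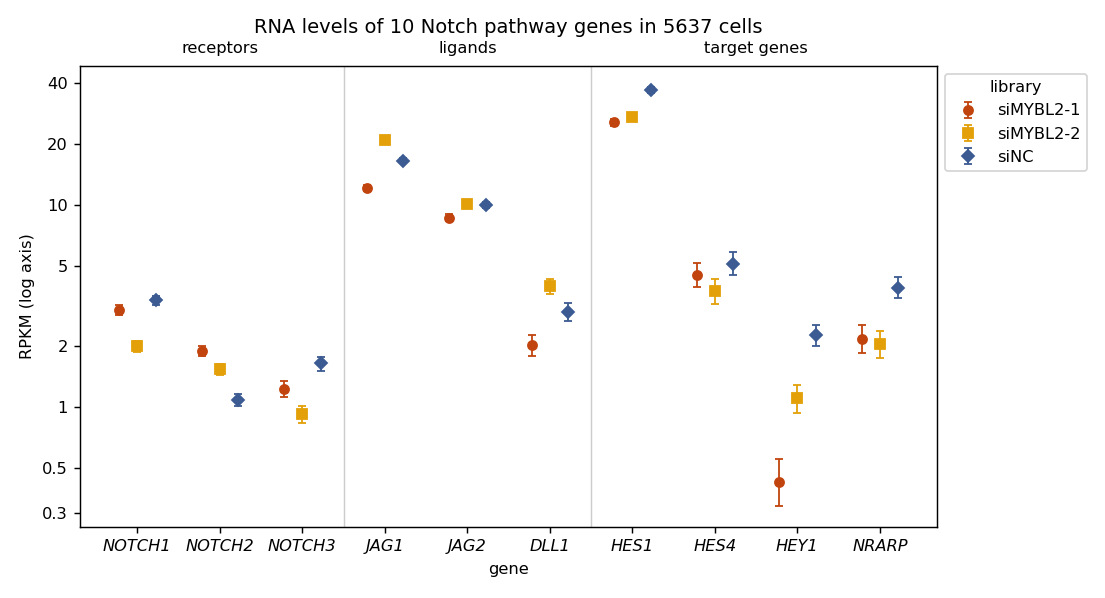
RPKM of the 10 Notch genes (log axis) in siMYBL2-1, siMYBL2-2 and siNC, 1 library each; points are the deposited values and bars are 95% counting intervals from the reads behind them. In all 4 target genes the siNC point is the highest of the 3 (36.4% of all genes tested), and in NOTCH2 it is the lowest (29.7%).

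Among the receptors, NOTCH1 and NOTCH3 were lower than siNC in both siMYBL2 libraries and NOTCH2 was higher in both. NOTCH1 (chromosome 9, 136494444 to 136545862, minus strand, hg38 as in all positions from the deposited table) had 1254, 915 and 1343 reads in siMYBL2-1, siMYBL2-2 and siNC, which make 3.04 and 2.01 RPKM in the siMYBL2 libraries, against 3.38 RPKM in siNC. The siMYBL2-1 value lay close to siNC, at 0.899 times its level (95% counting interval 0.832 to 0.972), and siMYBL2-2 at 0.594 times (0.546 to 0.647). The siMYBL2 libraries thus lay further from each other than siMYBL2-1 lay from siNC. By limma, with p-values adjusted over all 13274 genes tested, its log2 change was -0.33 (SE 0.30, adjusted p = 0.999).

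NOTCH3 (chromosome 19, 15159038 to 15200981, minus strand) had 1.23 RPKM in siMYBL2-1 and 0.924 RPKM in siMYBL2-2, against 1.65 RPKM in siNC. These are 0.749 times siNC (0.664 to 0.845) and 0.561 times siNC (0.494 to 0.637), and the limma log2 change was -0.35 (SE 0.28, adjusted p = 0.999). As in NOTCH1, the lower level was that of siMYBL2-2.

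NOTCH2 (chromosome 1, 119911553 to 120069626, minus strand) stood on the other side, at 1.9 RPKM (from 1332 reads) in siMYBL2-1 and 1.54 RPKM (from 1194 reads) in siMYBL2-2, against 1.09 RPKM (from 737 reads) in siNC. It was 1.74 times siNC (1.59 to 1.91) and 1.41 times siNC (1.29 to 1.55), with a limma log2 change of 0.38 (SE 0.28, adjusted p = 0.999). NOTCH2 was the lowest of the 10 genes in siNC and the eighth in each siMYBL2 library. Its first exons have near-identical copies elsewhere on chromosome 1, and how the counting treated reads that fit several copies is not given in the sources used here. NOTCH2NL, the row of such a copy, was at 1.57 RPKM in siMYBL2-1, 1.04 RPKM in siMYBL2-2 and 1.09 RPKM in siNC, or 1.43 times siNC (1.23 to 1.67) and 0.949 times siNC (0.805 to 1.12). NOTCH4, the remaining receptor, had at most 18 reads in a library. The summed level of the 3 receptors was 6.17 RPKM in siMYBL2-1 and 4.47 RPKM in siMYBL2-2, against 6.11 RPKM in siNC.

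The 3 ligands lay on opposite sides of siNC in the siMYBL2 libraries, with siMYBL2-1 below it and siMYBL2-2 above. JAG1 (chromosome 20, 10637684 to 10674107, minus strand), the most abundant ligand, had 12.1 RPKM (from 4321 reads) in siMYBL2-1 and 20.9 RPKM (from 8231 reads) in siMYBL2-2, against 16.6 RPKM (from 5706 reads) in siNC. DLL1 (chromosome 6, 170282206 to 170306565, minus strand), a Delta ligand, had 2.04 RPKM (275 reads) and 3.96 RPKM (590 reads) in siMYBL2-1 and siMYBL2-2, against 2.96 RPKM (384 reads) in siNC. In JAG1 and DLL1 the siNC value therefore lay inside the range of the siMYBL2 group, and the counting intervals of both ratios excluded 1.

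The siMYBL2 libraries differed from each other more than either differed from siNC in JAG1 and DLL1. JAG1 in siMYBL2-1 was at 0.580 times its level in siMYBL2-2 (0.559 to 0.602), while the ratios to siNC were 0.729 (0.701 to 0.759) in siMYBL2-1 and 1.26 (1.22 to 1.3) in siMYBL2-2. DLL1 in siMYBL2-1 was at 0.515 times siMYBL2-2 (0.444 to 0.595), with ratios to siNC of 0.689 (0.588 to 0.807) and 1.34 (1.18 to 1.53). JAG2 (chromosome 14, 105140981 to 105168824, minus strand) varied less, with 8.65 RPKM in siMYBL2-1 and 10.1 RPKM in siMYBL2-2, against 10.0 RPKM in siNC. The interval of its siMYBL2-2 ratio to siNC, 0.959 to 1.07, includes 1, which was not a detectable difference at 2995 and 2583 reads. When libraries were scaled by the median of gene ratios, siMYBL2-2 also came below siNC in JAG2. The limma log2 changes were -0.06 (SE 0.35) for JAG1, -0.09 (SE 0.29) for JAG2 and -0.03 (SE 0.34) for DLL1, all at an adjusted p of 0.999. Of the exonic bases of JAG1 and JAG2, 99.1% and 92.7% belong to no other row of the table, against 100% in the other 8 genes.

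The 4 target genes were lower than siNC in both siMYBL2 libraries, beside 36.4% of all genes tested. For HEY1 the filter fixed the side of the siMYBL2 mean, and for HES4 the siMYBL2-1 interval includes a ratio of 1. HES1 (chromosome 3, 194136145 to 194138732, plus strand), the HES repressor most often read as a sign of Notch activity, had 25.6 RPKM (from 2210 reads) in siMYBL2-1 and 27.3 RPKM (from 2601 reads) in siMYBL2-2, against 37.2 RPKM (from 3085 reads) in siNC. The siMYBL2 mean was 26.5 ± 1.19 RPKM (SD, n = 2), so the pair lay close together and below the control. Its ratio to siNC was 0.690 (0.653 to 0.729) in siMYBL2-1 and 0.735 (0.697 to 0.775) in siMYBL2-2, a fold of 1.45 and of 1.36, and the limma log2 change was -0.47 (SE 0.29, adjusted p = 0.999).

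NRARP (chromosome 9, 137300482 to 137302251, minus strand), whose product restrains the Notch complex, gave a pair as close. It had 2.18 RPKM (from 161 reads) in siMYBL2-1 and 2.06 RPKM (from 168 reads) in siMYBL2-2, against 3.90 RPKM (from 278 reads) in siNC. The siMYBL2 mean was 2.12 ± 0.0846 RPKM (SD, n = 2). That is 0.558 times siNC in siMYBL2-1 (0.456 to 0.679) and 0.527 times siNC in siMYBL2-2 (0.432 to 0.640), with a limma log2 change of -0.65 (SE 0.28, unadjusted p = 0.0416, adjusted p = 0.999).

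HEY1 (chromosome 8, 79764010 to 79767863, minus strand), a repressor of the related HEY family, had the lowest RPKM ratio to siNC of the 10 genes in each siMYBL2 library. It had 0.429 RPKM (from 58 reads) in siMYBL2-1 and 1.11 RPKM (from 165 reads) in siMYBL2-2, against 2.27 RPKM (from 296 reads) in siNC. These levels lie below siNC by a fold of 5.30 (3.99 to 7.15) and of 2.06 (1.70 to 2.50), and siMYBL2-1 was itself at 0.388 times siMYBL2-2 (0.283 to 0.527). By limma the log2 change on the log2(RPKM + 1) scale was -0.92 (SE 0.31, unadjusted p = 0.0153, adjusted p = 0.827). This scale understates the change of low genes, and with a pseudocount of 0.1 RPKM the value was -1.57 (adjusted p = 0.973). On the same change of scale NOTCH2 stood at 0.60 and NOTCH3 at -0.58. Only 1.08% of the genes tested had a lower mean log2 ratio than HEY1, against 3.25% for NRARP and 7.46% for HES1. As HEY1 passed the filter only through siNC, its mean ratio had to be below siNC, and its rank and p-values are descriptions.

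HES4 (chromosome 1, 998962 to 1000172, minus strand), a HES family repressor without a counterpart in the mouse, had, averaged over both siMYBL2 libraries, the log2 ratio nearest to 0 of the 4 targets. It was at 4.53 RPKM (from 212 reads) in siMYBL2-1 and 3.74 RPKM (from 193 reads) in siMYBL2-2, against 5.13 RPKM (from 231 reads) in siNC. The counting interval of its siMYBL2-1 ratio, 0.730 to 1.07 around 0.884, includes 1, so that difference was not detectable at this depth, while the siMYBL2-2 ratio was 0.728 (0.599 to 0.886). The limma log2 change was -0.26 (SE 0.29, adjusted p = 0.999).

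**Figure D2:**
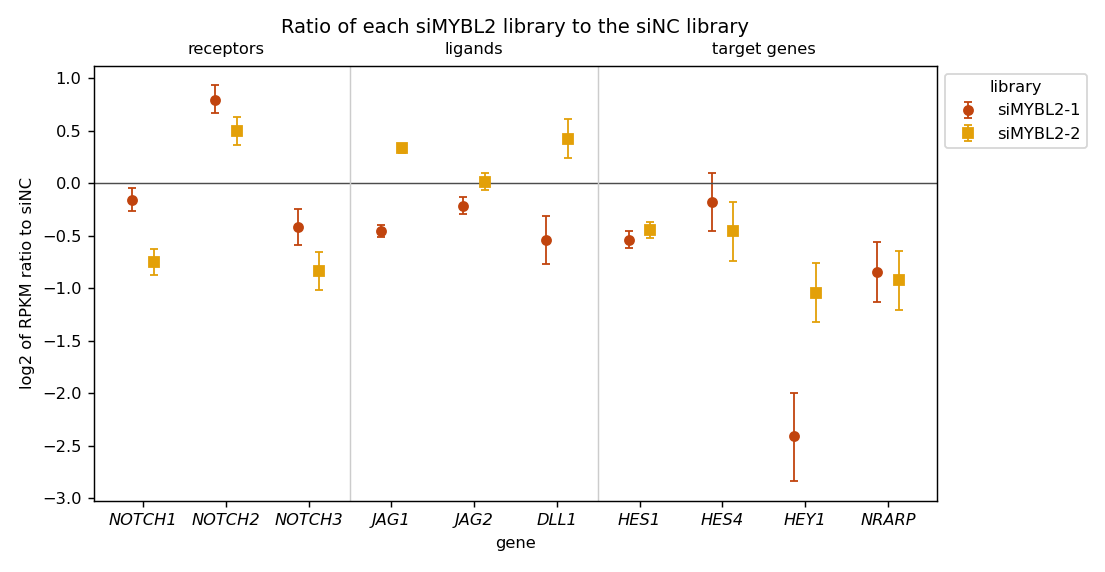
Log2 of the plain RPKM ratio to siNC for each of the 10 genes in siMYBL2-1 and siMYBL2-2, with 95% counting intervals that cover counting error only. The ligands lie on opposite sides of 0 in the 2 libraries, and HEY1 in siMYBL2-1 is the lowest point, 5.30-fold below siNC.

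In total, 6 of the 10 genes were lower than siNC in both siMYBL2 libraries and 1 was higher in both, against 36.4% and 29.7% of the 13274 genes tested. The remaining 3, the ligands, had siNC inside the siMYBL2 range. Both ratios of a gene share the siNC library, so a high or low value in that library alone moves both ratios the same way. At least 1.5-fold lower in both libraries were 2 of the 10 genes, HEY1 and NRARP, against 4.11% of all genes tested, and 0 were 1.5-fold higher in both, against 2.64%. Since HEY1 passed the filter only through siNC, its siMYBL2 mean had to lie below siNC, and its place in the counts of lower genes is a description. The 10 genes were also chosen with earlier results of these data known. In siMYBL2-2 alone, 4 genes were above siNC (48% of all genes tested) and 6 below it (52%), and past a fold of 1.5 stood 0 genes above siNC (4.91%) and 4 below it (8.63%), which were NOTCH1, NOTCH3, HEY1 and NRARP. In siMYBL2-1 alone, 1 was above siNC (45.3%) and 9 below it (54.7%), and past a fold of 1.5 stood NOTCH2 above siNC (11.2%) and HEY1 and NRARP below it (15%). The median log2 ratio of the 10 genes was -0.31 in siMYBL2-1 and -0.40 in siMYBL2-2, beside -0.04 and -0.01 over all genes tested, and by role it was -0.57 and -0.53 in the targets, -0.12 and -0.46 in the receptors and -0.38 and 0.31 in the ligands.

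None of the 10 genes passed limma at an adjusted p of 0.05. An unadjusted limma p below 0.05 was found in 2 of them (HEY1 and NRARP), beside 625 of all 13274 genes tested. For HEY1, the filter was passed only through siNC, so the direction of its change was fixed and its p-value is a description. Over all genes, limma called 1 gene higher (0.00753% of those tested) and 0 lower (0%). MYBL2 itself did not pass, at an adjusted p of 0.153. With limma-voom, a test on the reads behind the RPKM, 3 genes were called higher and 7 lower, none of them among the 10, whose smallest adjusted p was 0.600 for HEY1. The fit has 1 residual degree of freedom per gene, and limma draws the spread of each gene toward that of genes of like level. A missed threshold in this fit does not show that a level was the same.

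**Figure D3:**
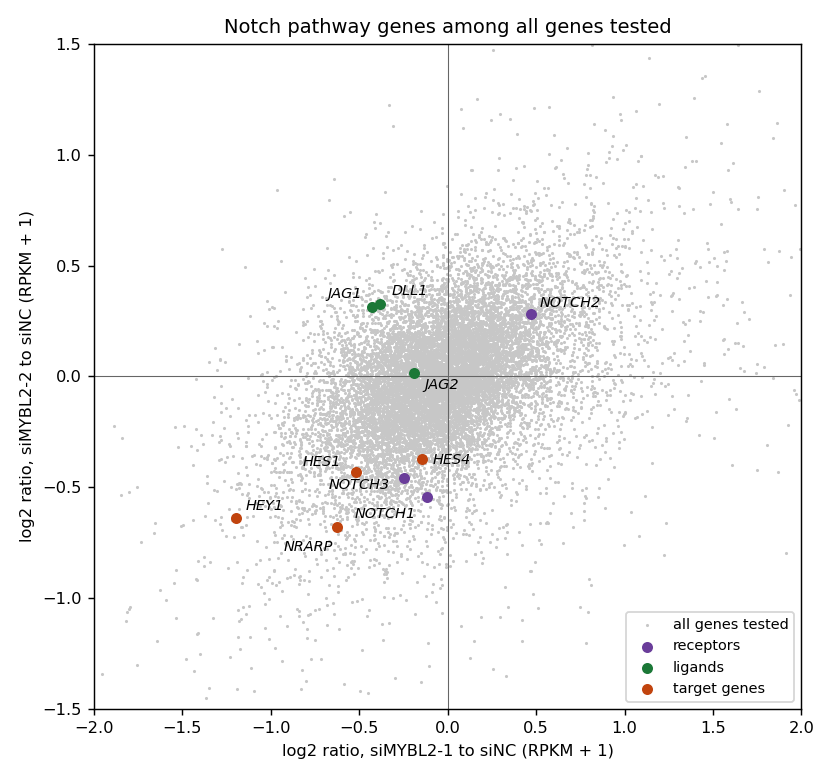
Log2 ratio to siNC on the log2(RPKM + 1) scale in siMYBL2-1 (x axis) and siMYBL2-2 (y axis) for the genes tested (grey, 75 lie outside the axes) and the 10 Notch genes (coloured by role). Both axes share the siNC library; the 4 targets, NOTCH1 and NOTCH3 lie below 0 on both axes and NOTCH2 above 0 on both.

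By the pair of log2 ratios to siNC on the log2(RPKM + 1) scale, over 3 libraries and 6353 other genes averaging 5 RPKM or more, the genes nearest to HEY1 were CCDC28A, CDK1 and PSRC1. HEY1 had log2 ratios of -1.20 in siMYBL2-1 and -0.64 in siMYBL2-2, and these genes lay at a distance of 0.0245 to 0.0498 from it. CDK1, for example, had 8.40 RPKM in siMYBL2-1 and 13.1 RPKM in siMYBL2-2, against 20.9 RPKM in siNC. The added 1 RPKM draws in the ratios of a gene as low as HEY1, and as plain RPKM ratios the 2 genes lay apart, at 0.189 and 0.486 for HEY1 and 0.401 and 0.624 for CDK1. Nearest to NOTCH2, with log2 ratios of 0.47 and 0.28, were PFN1, PAK2 and PSME3, at a distance of 0.0134 to 0.0209. PAK2 had 11.7 RPKM in siMYBL2-1 and 10.2 RPKM in siMYBL2-2, against 8.14 RPKM in siNC, which are plain ratios of 1.44 and 1.26 where NOTCH2 had 1.74 and 1.41. With 3 libraries, many genes share any such pattern.

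The rest of the pathway showed no common direction. Of 72 further genes in 7 lists, 55 had a mean of at least 1 RPKM, of which 15 were higher and 15 lower than siNC in both siMYBL2 libraries and 25 had siNC inside the range. That is 27.3% in each direction, beside 29.7% higher and 36.4% lower of all genes tested, and the median log2 ratios were 0.01 in siMYBL2-1 and -0.01 in siMYBL2-2. The same shares of all genes tested apply beside the counts of each list below. None passed limma (smallest adjusted p = 0.262) or limma-voom. An unadjusted limma p below 0.05 was found in 3 (CCND1, SOX9 and ID1), beside 625 of all 13274 genes tested.

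The DNA-binding partner RBPJ was nearly level, at 3.02 RPKM in siMYBL2-1 and 3.22 RPKM in siMYBL2-2, against 3.03 RPKM in siNC. Among 18 tested genes of RBPJ, its coactivators and corepressors, 4 were higher in both and 5 lower in both. The acetyltransferase gene KAT2B had 0.603 RPKM in siMYBL2-1 and 1.06 RPKM in siMYBL2-2, against 1.83 RPKM in siNC, through which alone it passed the filter, and the corepressor gene TLE1 had 11.5 and 9.0 RPKM, against 7.04 RPKM in siNC. The Mastermind gene MAML1 had 3.40 and 3.82 RPKM in siMYBL2-1 and siMYBL2-2, against 3.63 RPKM in siNC.

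Genes that act on the receptors before the nucleus were also spread around siNC. Of 7 tested genes of ADAM proteases and gamma-secretase, 2 were higher in both, 0 lower in both and 5 had siNC inside the range. ADAM10, which makes the first cut, was at 8.64 RPKM in siMYBL2-1 and 7.63 RPKM in siMYBL2-2, against 7.58 RPKM in siNC, and APH1A, a gamma-secretase subunit, at 5.97 and 5.54 RPKM, against 5.48 RPKM in siNC. Of 4 glycosylation genes, 2 were lower in both, the fringe genes LFNG (0.770 and 1.28 RPKM, against 1.64 RPKM in siNC) and RFNG (1.5 and 1.78 RPKM, against 2.21 RPKM in siNC). Of 10 genes of ubiquitination and endocytosis, 2 were higher in both and 4 lower in both. Of those 4, MIB2 passed the filter only through siNC (0.892 and 0.832 RPKM, against 1.38 RPKM in siNC). The ubiquitin ligase gene ITCH was at 12.4 and 13.1 RPKM, against 8.94 RPKM in siNC. DTX4, of the Deltex family, was at 10.2 and 9.25 RPKM, against 13.2 RPKM in siNC. Of the exonic bases of RFNG and ITCH, 78.4% and 66.1% belong to no other row.

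Of 4 other tested repressors of the HES and HEY type, 2 were lower than siNC in both libraries and 1 was higher in both. Of all genes tested, 36.4% were lower and 29.7% higher in both. HES6 was lower than siNC, at 4.18 RPKM in siMYBL2-1 and 3.42 RPKM in siMYBL2-2, against 6.23 RPKM in siNC (limma log2 change -0.60, SE 0.29, adjusted p = 0.999). HES6 is known to counteract HES1. HES7, an oscillating gene of somite formation, was higher, at 3.58 RPKM (from 280 reads) in siMYBL2-1 and 0.951 RPKM (from 82 reads) in siMYBL2-2, against 0.558 RPKM (from 42 reads) in siNC, so most of the difference came from siMYBL2-1. HES7 passed the filter only through siMYBL2-1 and had to be high there, so its place in the count is a description. BHLHE40 was the other gene lower in both, at 8.82 RPKM in siMYBL2-1 and 8.76 RPKM in siMYBL2-2, against 11.3 RPKM in siNC. HES2 had siNC inside the range (1.32 and 0.605 RPKM, against 1.3 RPKM in siNC). The median log2 ratio of the 4 tested genes was -0.16 in siMYBL2-1 and -0.43 in siMYBL2-2. HEY2 and HEYL reached at most 0.0158 and 0.0611 RPKM in a library, which leaves HEY1 as the HEY gene with the highest level in these cells. The ligands DLL3 and DLL4 reached at most 0.0548 and 0.105 RPKM.

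Genes reported elsewhere as Notch targets outside the HES and HEY families did not share one side. Of 12, all tested, 5 were higher in both libraries, 2 lower in both and 5 had siNC inside the range, with a median log2 ratio of 0.87 in siMYBL2-1 and 0.05 in siMYBL2-2. CCND1, which encodes cyclin D1, had 32.5 RPKM in siMYBL2-1 and 14.4 RPKM in siMYBL2-2, against 5.73 RPKM in siNC (limma log2 change 1.75, SE 0.42, adjusted p = 0.450). The transcription factor gene SOX9 had 10.9 and 9.76 RPKM, against 2.82 RPKM in siNC (log2 change 1.57, SE 0.29, limma adjusted p = 0.262). ID1, which encodes an inhibitor of basic helix-loop-helix factors, was on the other side, at 21.1 RPKM in siMYBL2-1 and 34.2 RPKM in siMYBL2-2, against 54.1 RPKM in siNC (log2 change -0.98, SE 0.34, unadjusted p = 0.0158, limma adjusted p = 0.840). Whether Notch had a part in the differences of these 3 genes was not tested.

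**Figure D4:**
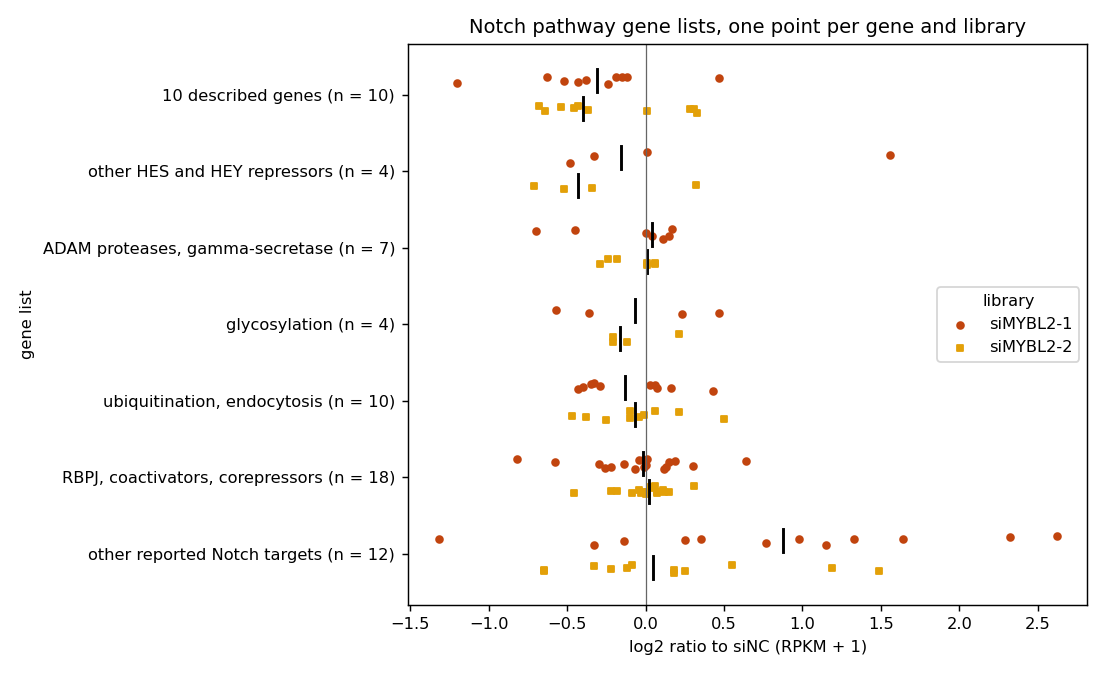
Log2 ratio to siNC on the log2(RPKM + 1) scale for each tested gene of the Notch lists in siMYBL2-1 (circles) and siMYBL2-2 (squares), with black bars at the median of each list and library. The medians of the 10 described genes are -0.31 and -0.40, and those of the cleavage and RBPJ lists lie within 0.04 of 0.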

How the data were processed

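The authors deposited 1 table of RPKM values with exon intervals and exonic lengths, per the file headers, from poly(A) RNA libraries made with dUTP, per the labels' protocols. cutadapt 1.9, HISAT2 2.0.4, StringTie 1.3.4d and the build hg38 appear in the submitters' processing notes, which assign them no step. Which tool counted reads, and with what strand setting, is not given in the sources used here. RPKM times length was a whole multiple of 1 step in 100% of values (tolerance 0.001 reads), which gave the reads. Intervals of ratios are exact conditional binomial intervals, and those of levels exact Poisson intervals, at 95%. Both describe counting error alone, because PCR copies of a molecule were not told apart.

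The test was limma-trend (limma 3.58.1, R 4.3.3) on log2(RPKM + 1) for genes that averaged 1 RPKM or more, with Benjamini-Hochberg adjustment over all 13274 genes. The spread of a gene comes from the siMYBL2 pair and is drawn toward the trend over genes of like level, with 10.2 degrees of freedom in total. It is taken to hold for siNC as well. In each list, the text names the 2 genes farthest from siNC on average among those on 1 side of it in both libraries, and, for HEY1 and NOTCH2 (lowest and highest mean ratio of the 10), the 3 genes with the nearest pair of ratios. RBPJ, MAML1, ID1, NOTCH2NL, NOTCH4, DLL3, DLL4, HES2, BHLHE40, HEY2, HEYL, MIB2 and the markers given with values were named after their values were seen. Members and lists were chosen with earlier results of these data known. DLK1, HES3, HES5 and 4 NOTCH2NL genes were not analysed here. The alternatives tried were other pseudocounts, filters and scalings, robust moderation, limma-voom and leaving out each siMYBL2 library.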

Additional observations from a re-analysis of the deposited data

How the results depend on the processing

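Each of the 10 genes kept the sign of its log2 change, and none passed the threshold, under every pseudocount, filter, scaling and test tried, with adjusted p-values between 0.600 and 1.00. Without siMYBL2-1 the ligands turned positive, with log2 ratios of 0.31 for JAG1, 0.01 for JAG2 and 0.33 for DLL1. The filter at 5 RPKM left only HES1, JAG1 and JAG2 with a value. The number of all genes called higher, 1 as reported, was 0 without a filter, at a filter of 5 RPKM, under the 2 other scalings and under robust moderation, and 3 by limma-voom, which called 7 lower. With the filter at 5 RPKM, which tests fewer genes, the members higher in both libraries numbered 0, those lower in both 1, and those 1.5-fold lower 0. Leaving out each siMYBL2 library in turn, 1 to 4 members were higher than siNC, 6 to 9 lower, 0 to 1 were 1.5-fold higher and 2 to 4 were 1.5-fold lower. Scaling by the median of gene ratios put 7 members, JAG2 among them, lower in both libraries, against 6 as reported. Other scalings shifted a library against siNC by at most 0.02 on the log2 scale. No paired analysis was possible because siNC has a single library. At these depths the differences from siNC of HES4 in siMYBL2-1 and JAG2 in siMYBL2-2 were not detectable.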
